A study of Homo sapiens with 24 samples.

Results

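The circadian clock genes ARNTL, ARNTL2, CLOCK, PER1, PER2, PER3, CRY1, CRY2, BHLHE40 and BHLHE41 were followed in polyA RNA-seq of RCC4+VHL cells, a renal cell carcinoma line in which the tumour suppressor VHL was put back by stable transfection. These 10 genes were chosen by name, with earlier results of these data known, out of the 23106 gene symbols counted in each of 24 libraries. ARNTL is on the list because the study named it as a target shared by both of its stimuli. The study required binding by both HIF and AHR in its separate ChIP-seq, which is not examined here. It also required up-regulation by both stimuli in these same libraries, so the direction of ARNTL here is not independent evidence. The stimuli were hypoxia, which activates the hypoxia-inducible factor HIF, and ITE, a ligand that activates the aryl hydrocarbon receptor AHR. There were 6 independent replicates of each of 4 groups. These were normoxia + DMSO (21% oxygen with 0.1% DMSO as vehicle), normoxia + ITE (21% oxygen with 100 nM ITE), hypoxia + DMSO (0.5% oxygen with 0.1% DMSO) and hypoxia + ITE (0.5% oxygen with 100 nM ITE), all treated for 6 h. All groups share the same VHL-transfected clone, and all were grown in charcoal-treated serum before treatment. Each culture was harvested once, so the values below are levels at a single time and hold no information on rhythm.

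The mammalian clock is a feedback loop of transcription. CLOCK pairs with ARNTL (also called BMAL1) or its relative ARNTL2 (BMAL2), and the pair binds E-box elements in the promoters of the PER and CRY genes. The PER and CRY proteins then inhibit the pair, while BHLHE40 (DEC1) and BHLHE41 (DEC2) repress the same E-boxes by binding them directly. CLOCK and both ARNTL proteins belong to the bHLH-PAS family, as do AHR, the HIF alpha subunits and their common partner ARNT, and BHLHE40 and BHLHE41 are long known as genes induced by hypoxia.

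Total counts ranged from 770094 in hypoxia + DMSO replicate 2 to 93851342 in normoxia + DMSO replicate 3, so 3 counts were worth between 0.0294 and 4.12 CPM, the unit used below for a gene's count relative to its TMM-scaled library total. These floors cover counting error only. Both stimuli registered in their usual target genes. In vehicle-treated cells NDRG1, a HIF target, went from 33.2 ± 6.02 to 316 ± 58.7 CPM (SD, n = 6) with hypoxia, and in normoxia CYP1B1, an AHR target, went from 56.7 ± 7.75 to 322 ± 53.0 CPM with ITE. The renal epithelial markers PAX8, PAX2, KRT8, KRT18 and VIM were counted in every library, although the renal carcinoma marker CA9 was at 0 in 23 of 24. The markers of other cell types given here reached at most 1.84 CPM in any library. The leukocyte markers PTPRC and CD3E were at 0 in 23 libraries each and LYZ in 16. Of the hepatocyte markers, TTR was at 0 in all 24 and ALB and APOA1 in 22 each. Of the endothelial markers, PECAM1 was at 0 in 23, CDH5 in 18 and VWF, which reached the highest level, in 9. In addition, 5 hypoxia libraries, the shallowest of all among them, stood apart from their groups. The median gene deviated from its group median by 0.677 on the log2 scale in hypoxia + ITE replicate 6, by 0.359 and 0.297 in hypoxia + DMSO replicates 1 and 2, and by 0.265 and 0.248 in hypoxia + ITE replicates 3 and 1, against at most 0.157 in any other library. The hypoxic differences of the clock genes on the list, of CIART and of NFIL3 were therefore also fitted without these 5 libraries, a choice made after seeing the data. As these libraries lay farthest from their group medians, leaving them out reduces the spread within groups by construction. The smaller p-values of that fit are therefore not independent support.

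The clearest change among the clock genes was in the direct E-box repressors. BHLHE40 rose in hypoxia, 2.90-fold with DMSO and 2.44-fold with ITE, and BHLHE41 rose 2.002-fold in hypoxia with DMSO. Of the activators and the PER and CRY genes, none passed the test in any comparison, and no clock gene on the list passed it for ITE. Among other genes of the clock, CIART rose in hypoxia with DMSO and with ITE. NFIL3 passed with DMSO but not with ITE, and its call was lost when certain single libraries were left out. All 10 genes passed edgeR's expression filter, as did 11735 genes in all, and an adjusted p-value under 0.05 over these 11735 genes was the threshold throughout.

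The members differed widely in level, which was compared as CPM per kilobase of exon because their exonic lengths ranged from 3.52 kb for BHLHE40 to 11.5 kb for CLOCK. In normoxia + DMSO, BHLHE40 was the highest at 15.8 ± 1.98 CPM per kb (SD, n = 6), followed by ARNTL2 at 12.8 ± 0.996 CPM per kb, and the ranges of these neighbours overlapped. CRY1 came next at 7.86 ± 0.758 CPM per kb and CLOCK at 3.61 ± 0.35 CPM per kb, each with a range apart from its neighbours on both sides. The other 6 genes formed a chain of overlapping ranges. In order they were BHLHE41 (2.30 ± 0.591 CPM per kb), CRY2 (1.33 ± 0.206), PER3 (0.997 ± 0.213), PER1 (0.747 ± 0.151), ARNTL (0.599 ± 0.163) and PER2 (0.419 ± 0.133). In the ARNTL, CRY and BHLHE pairs, 1 gene carried most of the transcript. Per kilobase, ARNTL2 exceeded ARNTL in every library, by 10.6-fold to 40.8-fold with a median of 15.9-fold over the 24 libraries. CRY1 exceeded CRY2 by a median of 5.96-fold (from 2.15-fold to 25.9-fold), and BHLHE40 exceeded BHLHE41 by a median of 9.69-fold (from 5.01-fold to 19.4-fold). The highest CRY ratio rested on a single CRY2 count in hypoxia + DMSO replicate 2, the shallowest library. In normoxia + DMSO the CRY ratio ran from 5.07-fold to 6.88-fold. The spread between replicates was smaller in the abundant genes. The coefficient of variation in normoxia + DMSO was 7.79% for ARNTL2, 9.65% for CRY1, 9.70% for CLOCK and 12.6% for BHLHE40. It was 27.2% for ARNTL and 31.7% for PER2.

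In hypoxia + DMSO, BHLHE40 was again the highest and stood alone at 45.3 ± 8.80 CPM per kb, with no library in the range of ARNTL2 at 12.3 ± 1.2 CPM per kb. BHLHE41 stood above CLOCK, at 4.46 ± 1.64 against 3.08 ± 0.527 CPM per kb, but their ranges overlapped. Among the low genes ARNTL (0.821 ± 0.3 CPM per kb) stood above PER1 and PER3 (0.520 ± 0.247 CPM per kb) below it, again within a chain of overlapping ranges.

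The comparison of hypoxia with normoxia in vehicle-treated cells asks what low oxygen did on its own. BHLHE40 (GRCh37 chr3:5021122-5027008) lay between 49.9 and 68.1 CPM (median 53.3) in normoxia + DMSO and between 117 and 197 CPM (median 167) in hypoxia + DMSO. Every hypoxic library stood above every normoxic one, and the log2 fold change was 1.53 (SE 0.16, adjusted p = 1.27e-07 from edgeR). BHLHE41 (GRCh37 chr12:26272963-26277970), the close relative with the same repressor role, lay between 5.08 and 11.03 CPM (median 9.14) in normoxia + DMSO and between 7.33 and 25.2 CPM (median 19.1) in hypoxia + DMSO. Here 5 of the 6 hypoxic libraries stood above the highest normoxic one, and the exception was replicate 1, 1 of the libraries that stood apart. Its log2 fold change was 1.002 (SE 0.24, adjusted p = 0.0268 from edgeR). Thus 2 of the 10 clock genes were higher and 0 lower in this comparison, where 1.16% of all genes tested were higher and 0.136% lower. The median log2 fold change of the 10 was -0.04, and that of all genes tested was close to 0. Without the 5 libraries that stood apart, the log2 fold change was 1.68 for BHLHE40 (adjusted p = 3.52e-12 from edgeR) and 1.23 for BHLHE41 (adjusted p = 7.79e-05 from edgeR). That fit called 517 of 12001 genes, against 152 of 11735 in the main fit. The call of BHLHE41 rested on single libraries, since it was lost when any of normoxia + DMSO replicates 1, 2 or 3 or hypoxia + DMSO replicates 3, 4, 5 or 6 was left out, with log2 fold changes from 0.86 to 0.98 and adjusted p-values from 0.066 to 0.12 in edgeR. Fewer cells and less RNA per cell cannot be told apart in such bulk samples.

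**Figure D1:**
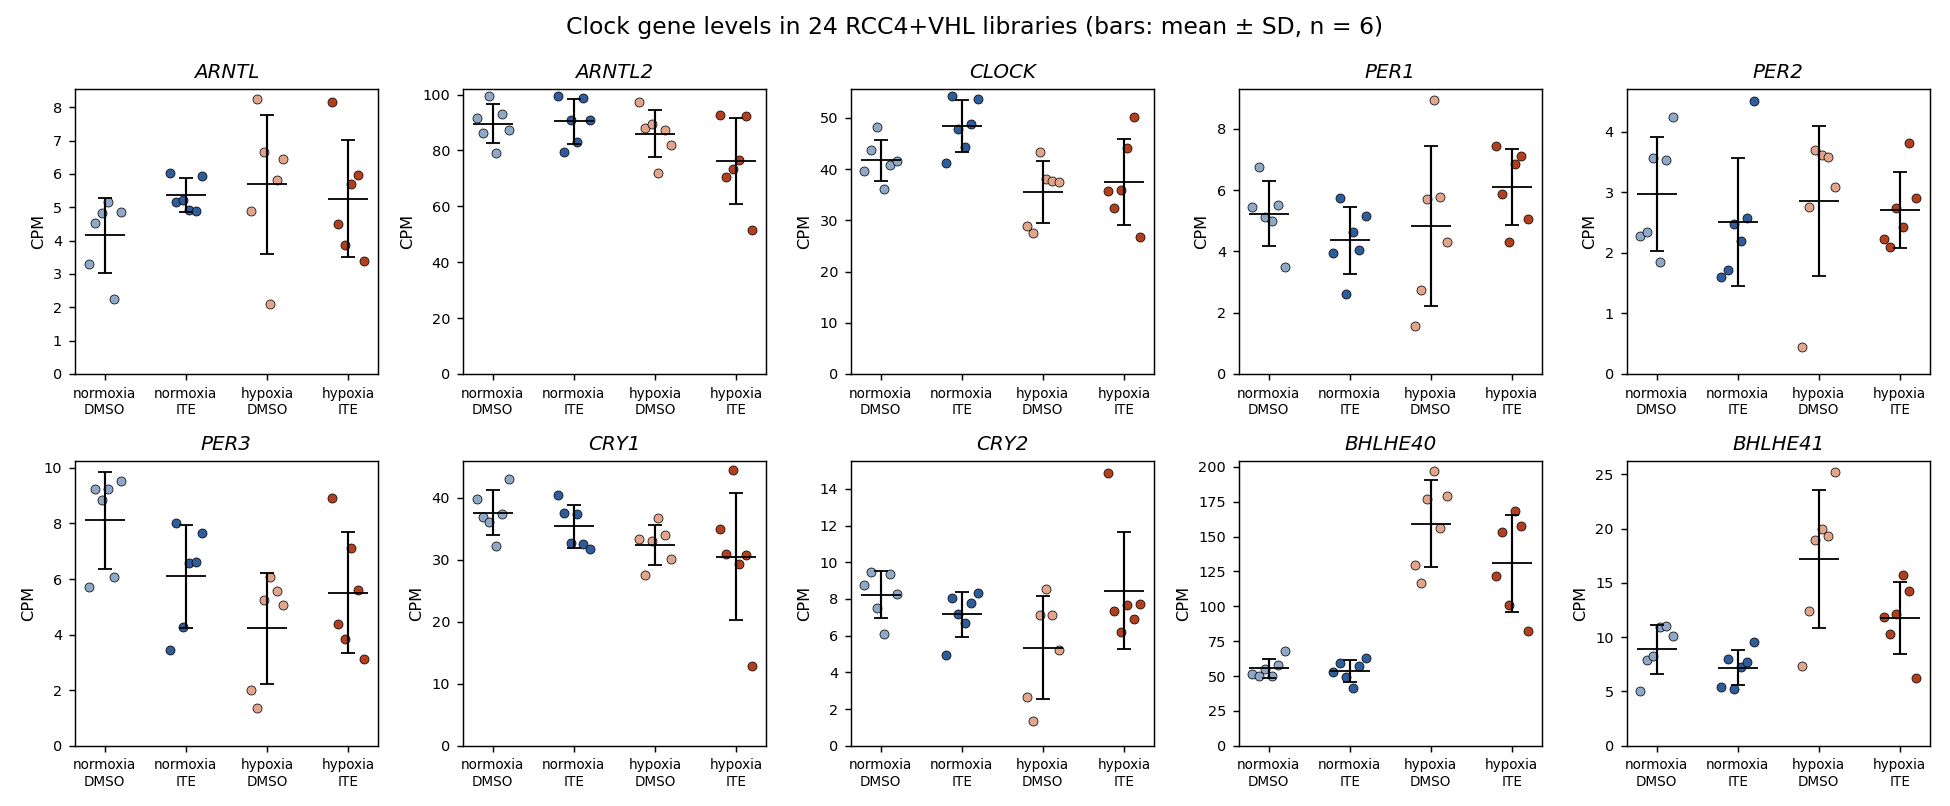
CPM of each clock gene in the 24 libraries, with 1 point per library, and the mean ± SD of the 6 replicates of each group as bars. In the panel of BHLHE40, all hypoxic libraries (82.1 to 197 CPM) stand above all normoxic ones (41.4 to 68.1 CPM), while the groups of most other genes overlap.

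With ITE present the response to hypoxia was compared again. BHLHE40 lay between 41.4 and 63.1 CPM (median 54.9) in normoxia + ITE and between 82.1 and 168 CPM (median 138) in hypoxia + ITE, again with no overlap. Its log2 fold change was 1.29 (SE 0.16, adjusted p = 3.57e-06 from edgeR), and 1.57 (adjusted p = 7.51e-11 from edgeR) without the 5 libraries that stood apart. BHLHE41 lay between 5.23 and 9.58 CPM (median 7.48) in normoxia + ITE and between 6.28 and 15.7 CPM (median 12.02) in hypoxia + ITE, and 5 of 6 hypoxic libraries stood above the normoxic range. Its log2 fold change of 0.73 (SE 0.24) did not pass, with an adjusted p of 0.1 from edgeR. It passed without the 5 libraries that stood apart, 1 of which, hypoxia + ITE replicate 6, held the lowest hypoxic value (0.89, adjusted p = 0.00998 from edgeR). So 1 of the 10 genes was higher and 0 lower with ITE, where 1.89% of all genes tested were higher and 0.46% lower. Against cells with neither stimulus, cells with both had BHLHE40 higher by 1.24 on the log2 scale (SE 0.16, adjusted p = 5.12e-06 from edgeR), and BHLHE41 differed by 0.43 (SE 0.24, adjusted p = 0.32 from edgeR). In that comparison 1.79% of genes tested were higher and 0.528% lower, and BHLHE40 alone of the 10 passed. Without the 5 libraries these differences were 1.53 for BHLHE40 (adjusted p = 8.77e-11 from edgeR) and 0.60 for BHLHE41 (adjusted p = 0.115 from edgeR). These comparisons share their control libraries with those above.

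Because BHLHE40, BHLHE41 and the repressors CIART and NFIL3, described below, rose in the same comparison, the 250 bases before the start of each are shown. They were taken from RefSeq's promoter windows (GRCh38.p14) and located in GRCh37, the build of the counts. For CIART, whose window has no exact match there, the 250 GRCh37 bases that end at the same site were read instead. Capitals mark every match, on either strand, to CACGTG (the E-box bound by CLOCK and ARNTL and by BHLHE40), to ACGTG (a core of the hypoxia response element) or to GCGTG (the AHR element, which is also a form of the hypoxia response element). Each E-box contains ACGTG on both strands, so the matches overlap.

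BHLHE40, chr3:5020872-5021121, plus strand: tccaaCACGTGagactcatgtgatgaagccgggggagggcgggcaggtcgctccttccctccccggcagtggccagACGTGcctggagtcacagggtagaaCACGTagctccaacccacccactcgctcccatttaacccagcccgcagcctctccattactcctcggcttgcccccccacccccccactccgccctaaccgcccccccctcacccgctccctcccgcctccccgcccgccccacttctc

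BHLHE41, chr12:26277971-26278220, minus strand: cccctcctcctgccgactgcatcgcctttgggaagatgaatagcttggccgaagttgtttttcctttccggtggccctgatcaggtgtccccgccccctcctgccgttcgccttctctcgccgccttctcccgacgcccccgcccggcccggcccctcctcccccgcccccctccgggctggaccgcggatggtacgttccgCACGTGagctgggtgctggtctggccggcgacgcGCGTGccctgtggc

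CIART, chr1:150254714-150254963, plus strand: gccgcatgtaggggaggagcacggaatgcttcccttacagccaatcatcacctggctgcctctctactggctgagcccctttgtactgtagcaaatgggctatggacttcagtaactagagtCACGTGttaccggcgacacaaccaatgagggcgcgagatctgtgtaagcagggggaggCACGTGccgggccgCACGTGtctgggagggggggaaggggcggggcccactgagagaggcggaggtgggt

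NFIL3, chr9:94186115-94186364, minus strand: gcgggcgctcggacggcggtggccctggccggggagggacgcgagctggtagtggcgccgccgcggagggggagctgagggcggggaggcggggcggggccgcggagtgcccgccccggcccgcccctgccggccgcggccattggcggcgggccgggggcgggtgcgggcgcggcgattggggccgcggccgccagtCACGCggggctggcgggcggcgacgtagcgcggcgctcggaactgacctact

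The BHLHE40 window held 1 E-box, whose first base lay 245 bases before the start, and 2 further ACGTG matches at 174 and 149 bases. BHLHE41 had 1 E-box at 48 bases and 1 GCGTG at 14 bases. CIART had 3 E-boxes, at 128, 70 and 56 bases, and no GCGTG. NFIL3 had neither an E-box nor ACGTG, in the window shown or in that of its second start (chr9:94186909-94187158), and 1 GCGTG in each, at 52 and 87 bases. All 10 members had a window in the RefSeq table, 14 windows in all since some have 2 starts. Of the other members, PER1 alone had the CACGTG form of the E-box in its window, at 173 bases. The hypoxic differences of PER1, given below, did not pass. Other forms of the E-box were not searched. At least 1 ACGTG was found in 7 of the 14 windows, in BHLHE40, BHLHE41, PER1, PER2, CLOCK, CRY1 and CRY2, and none in the windows of ARNTL, ARNTL2 and PER3. Among all 35116 windows of the same length, 6.34% held CACGTG, 18.5% held ACGTG and 32.2% held GCGTG. A match describes these letters only, and none of these windows was tested for binding here.

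The activators did not pass the test in any comparison. ARNTL (GRCh37 chr11:13298199-13408813) lay between 2.26 and 5.16 CPM (median 4.67) in normoxia + DMSO and between 4.89 and 6.04 CPM (median 5.20) in normoxia + ITE. With ITE, 4 of 6 libraries stood above the highest vehicle library, but the log2 fold change was 0.34 (SE 0.24, adjusted p = 1 from edgeR), with a 95% interval from -0.16 to 0.83. In hypoxia + DMSO it lay between 2.09 and 8.25 CPM (median 6.14), a log2 fold change of 0.36 against normoxia + DMSO (SE 0.25, adjusted p = 0.699 from edgeR, interval from -0.15 to 0.87). With both stimuli it lay between 3.38 and 8.17 CPM (median 5.10), 0.25 above cells with neither (SE 0.24, adjusted p = 0.609 from edgeR). Without the 5 libraries that stood apart, ARNTL differed in hypoxia by 0.33 with DMSO (adjusted p = 0.546 from edgeR). Both single differences of ARNTL thus pointed up without passing, and their intervals leave room for a change of up to 0.83 and 0.87 on the log2 scale in that direction. At about 4 to 6 CPM, ARNTL was counted 6 to 513 times per library.

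ARNTL2 had the smallest relative spread of the members in normoxia + DMSO. Its median was 89.5 CPM with neither stimulus, 91.0 CPM with ITE alone, 87.7 CPM with hypoxia alone and 74.9 CPM with both. The hypoxic difference of ARNTL2 was -0.06 with DMSO (SE 0.12, adjusted p = 0.926 from edgeR) and -0.26 with ITE (SE 0.12, adjusted p = 0.222 from edgeR), neither of which passed, and -0.11 (adjusted p = 0.615) and -0.19 (adjusted p = 0.422) in edgeR without the 5 libraries that stood apart. In the latter, 4 of 6 hypoxic libraries stood below the range of normoxia + ITE, and the lowest, at 51.4 CPM, was replicate 6. With vehicle, CLOCK lay between 36.1 and 48.1 CPM (median 41.2) in normoxia and between 27.5 and 43.3 CPM (median 37.6) in hypoxia. With ITE it lay between 41.3 and 54.3 CPM (median 48.3) and between 26.8 and 50.1 CPM (median 35.8). It was lower in hypoxia by 0.21 with DMSO (SE 0.14, adjusted p = 0.684 from edgeR) and by 0.35 with ITE (SE 0.13, adjusted p = 0.143 from edgeR), neither of which passed. Leaving out hypoxia + ITE replicate 5 alone brought the latter to -0.46 and past the threshold (adjusted p = 0.039 from edgeR), but leaving out the 5 libraries that stood apart brought it to -0.20 (adjusted p = 0.51 from edgeR).

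The PER genes, which encode inhibitors of the pair and whose transcripts cycle in many tissues, were all low. PER3 showed the largest difference of the 3. It lay between 5.71 and 9.53 CPM (median 9.04) in normoxia + DMSO and between 1.37 and 6.09 CPM (median 5.16) in hypoxia + DMSO, and 5 of 6 hypoxic libraries stood below the normoxic range. Its log2 fold change of -0.80 (SE 0.27) had an unadjusted p of 0.00616 and an adjusted p of 0.216 from edgeR, so it did not pass. The lowest value, in hypoxia + DMSO replicate 2, was a single count, and the next, 1.999 CPM, came from replicate 1, both of which stood apart. Without the 5 such libraries the log2 fold change was -0.59 (adjusted p = 0.168 from edgeR), whereas limma's voom with sample quality weights gave -0.74 and an adjusted p of 0.0245. With ITE the same hypoxic difference was -0.21 (SE 0.27, adjusted p = 0.696 from edgeR). Normoxia + ITE itself lay between 3.45 and 8.03 CPM (median 6.59), and hypoxia + ITE between 3.14 and 8.91 CPM (median 5.004).

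PER1 lay between 3.49 and 6.77 CPM in normoxia + DMSO and between 1.56 and 8.94 CPM in hypoxia + DMSO, and differed by -0.03 (SE 0.27, adjusted p = 0.992 from edgeR), or by 0.21 (adjusted p = 0.709 from edgeR) without the 5 libraries that stood apart. In ITE-treated cells it was 0.48 higher in hypoxia (SE 0.26, adjusted p = 0.316 from edgeR), with 4 of 6 hypoxic libraries (4.32 to 7.43 CPM) above the range of normoxia + ITE (2.62 to 5.73 CPM), and 0.61 higher without the 5 libraries (adjusted p = 0.204 from edgeR). PER2 was the lowest member, at a median of 2.94 CPM with neither stimulus, 2.33 CPM with ITE alone, 3.33 CPM with hypoxia alone and 2.58 CPM with both. Its hypoxic difference was 0.02 with DMSO (SE 0.32, adjusted p = 0.996 from edgeR) with an interval from -0.65 to 0.68, and it rested on as few as 2 counts in a library. Without the 5 libraries the PER2 difference was 0.26 (adjusted p = 0.737 from edgeR).

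Of the CRY genes, which encode the other inhibitors of the pair, CRY1 lay between 32.3 and 43.1 CPM in normoxia + DMSO and between 27.5 and 36.7 CPM in hypoxia + DMSO, a difference of -0.19 (SE 0.17, adjusted p = 0.781 from edgeR), and -0.16 (adjusted p = 0.406 from edgeR) without the 5 libraries that stood apart. Its range was widest in hypoxia + ITE, from 12.8 CPM in replicate 6 to 44.4 CPM. CRY2 lay between 6.08 and 9.45 CPM (median 8.51) in normoxia + DMSO and between 1.37 and 8.56 CPM (median 6.19) in hypoxia + DMSO. The difference was -0.46 (SE 0.24, adjusted p = 0.573 in edgeR), and -0.22 (adjusted p = 0.593 in edgeR) without the 5 libraries that stood apart. The lowest CRY2 value was again a single count in the shallowest library. With ITE the difference was 0.13 (SE 0.24, adjusted p = 0.807 in edgeR).

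ITE against vehicle asks what AHR activation did at each oxygen level. In normoxia, 0 of the 10 genes passed and 0 had an unadjusted p under 0.05 in edgeR, where 0.0511% of all genes tested passed and 1.46% had such an unadjusted p. DESeq2 and voom also gave 0 members. With the replicate number as a block in the compared groups alone, 255 of 11511 genes passed in edgeR and again 0 members. The share of all genes that passed thus depended on the fit. The differences ran from -0.42 for PER3 (SE 0.26) to 0.34 for ARNTL, and the median was -0.14, against a median close to 0 over all genes. The intervals were narrowest for ARNTL2 (from -0.22 to 0.26) and widest for PER2 (from -0.85 to 0.45), so the data limit the effect of ITE more closely for the abundant members. In hypoxia, 0 of the 10 passed again, where 0.0597% of genes did. BHLHE41 alone, 1 of 10, had an unadjusted p under 0.05 in edgeR, as did 9.56% of all genes tested, so this share was near the background. It was lower in hypoxia + ITE than in hypoxia + DMSO by 0.57 (SE 0.24, adjusted p = 0.494 from edgeR). BHLHE40 differed in the same direction by -0.29 (SE 0.16, adjusted p = 0.549 from edgeR), and the ranges of both genes overlapped between the groups.

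**Figure D2:**
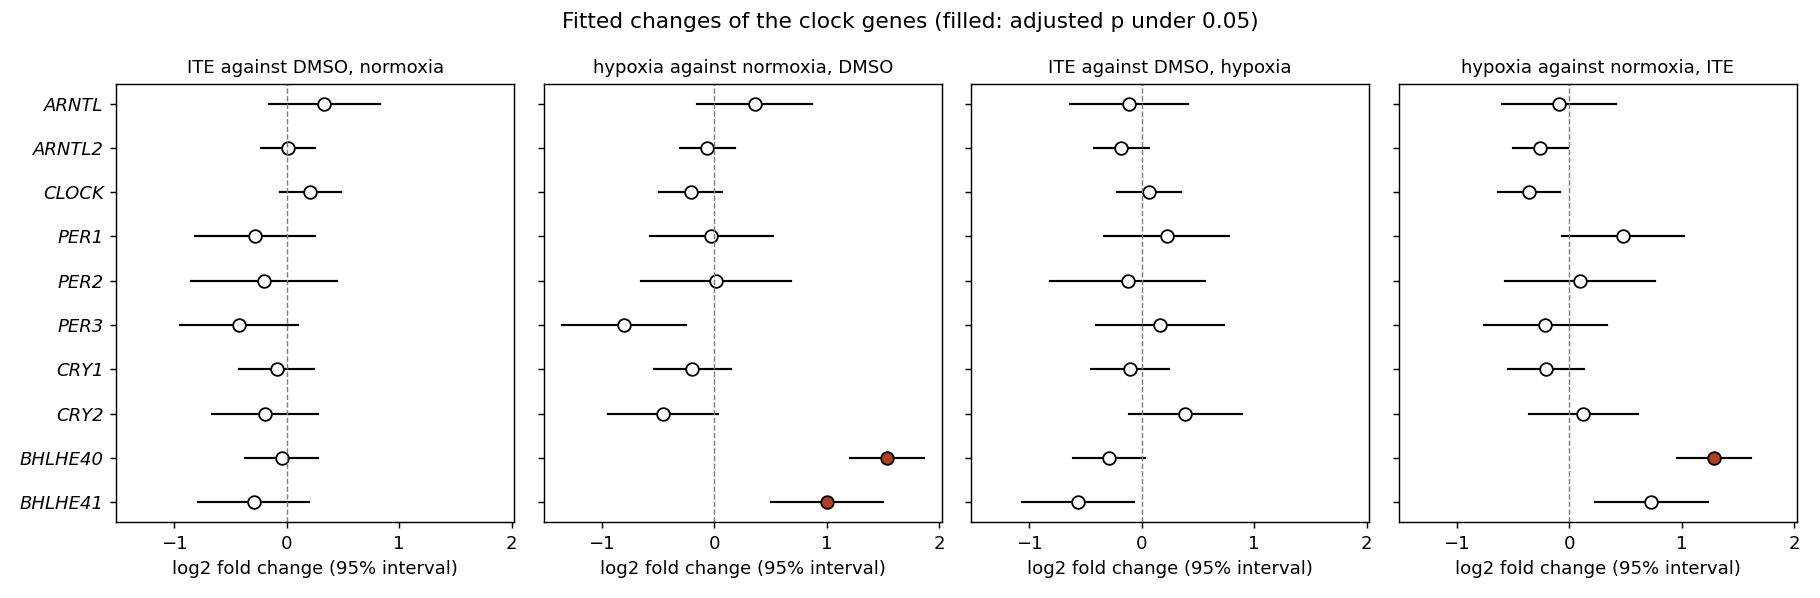
Log2 fold change of each clock gene with its 95% interval in 4 comparisons, where filled points passed an adjusted p of 0.05 in edgeR. BHLHE40 (1.53 and 1.29) and BHLHE41 (1.002) are the filled points, all for hypoxia against normoxia.

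Whether the effect of ITE differed between oxygen levels was tested by the interaction. No member passed, and 0% of all genes did (0 with DESeq2 and voom as well). An unadjusted p under 0.05 in edgeR was found for 0 of the 10 members and for 374 of all genes tested (3.19%). The largest member values were 0.59 for PER3 (SE 0.38, adjusted p = 0.915), 0.58 for CRY2 (SE 0.34, adjusted p = 0.915), 0.50 for PER1 (SE 0.38, adjusted p = 0.915) and -0.45 for ARNTL (SE 0.35, adjusted p = 0.915) in edgeR. For BHLHE40, whose response to hypoxia was 1.53 without and 1.29 with ITE, the interaction was -0.25 (SE 0.22, adjusted p = 0.915 in edgeR), with an interval from -0.70 to 0.21.

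Of 28 further genes of the clock, a list chosen with earlier results of these data known, 22 passed the filter. RORB was at 0 in all 24 libraries, while RORA, an activator of ARNTL, did not exceed 0.334 CPM and the output factor HLF did not exceed 0.241 CPM. DBP, another output factor, had a median of 0.518 CPM and did not pass the filter. In hypoxia with DMSO, 2 of the 22 were higher and 0 lower, where 1.16% of all genes tested were higher and 0.136% lower. The median log2 fold change of the 22 was 0.04. CIART (GRCh37 chr1:150254953-150259505), a repressor that acts on the CLOCK and ARNTL pair, lay between 0.773 and 2.54 CPM (median 1.25) in normoxia + DMSO and between 2.66 and 6.19 CPM (median 4.61) in hypoxia + DMSO, with no overlap. The value of hypoxia + DMSO replicate 2, the shallowest library, was 2.75 CPM from 2 counts, so the separation there rested on counts near the floor. The log2 fold change of CIART was 1.77 (SE 0.36, adjusted p = 0.00447 from edgeR), the largest of any clock gene tested here. In ITE-treated cells it rose by 1.75 on the log2 scale (SE 0.36, adjusted p = 0.00475 from edgeR), with 5 of 6 hypoxic libraries above the range of normoxia + ITE and 1 count in the other, the shallow replicate 1. Without the 5 libraries that stood apart, CIART rose by 1.84 with DMSO (adjusted p = 0.00136) and by 1.76 with ITE (adjusted p = 0.0045) in edgeR. With the replicate number as a block in the compared groups alone, the call with ITE was lost (1.69, adjusted p = 0.166 from edgeR).

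NFIL3 (GRCh37 chr9:94171327-94186114), a repressor that opposes DBP at its sites, lay between 28.6 and 35.6 CPM (median 31.4) in normoxia + DMSO and between 42.6 and 63.0 CPM (median 57.5) in hypoxia + DMSO, also with no overlap. It rose by 0.79 on the log2 scale (SE 0.19, adjusted p = 0.0239 from edgeR). This call was lost when any of normoxia + DMSO replicates 1 to 4 or hypoxia + DMSO replicates 1, 4 or 6 was left out, with adjusted p-values from 0.0538 to 0.074 in edgeR, and with the replicate number as a block over all groups (adjusted p = 0.0512 from edgeR). Without the 5 libraries NFIL3 rose by 0.80 with DMSO (adjusted p = 1.08e-05 from edgeR). With ITE its hypoxic difference was 0.22 (SE 0.19, adjusted p = 0.519 in edgeR), and 0.48 (adjusted p = 0.0107 in edgeR) without these libraries. The interaction of NFIL3 was -0.57 (SE 0.26, adjusted p = 0.915 in edgeR). In ITE-treated cells, 1 of the 22 was higher and 0 lower in hypoxia, where 1.89% of all genes tested were higher and 0.46% lower. The median of the 22 was -0.07. For ITE itself, 0 of the 22 passed at either oxygen level, where 0.0511% of all genes tested passed in normoxia and 0.0597% in hypoxia.

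**Figure D3:**
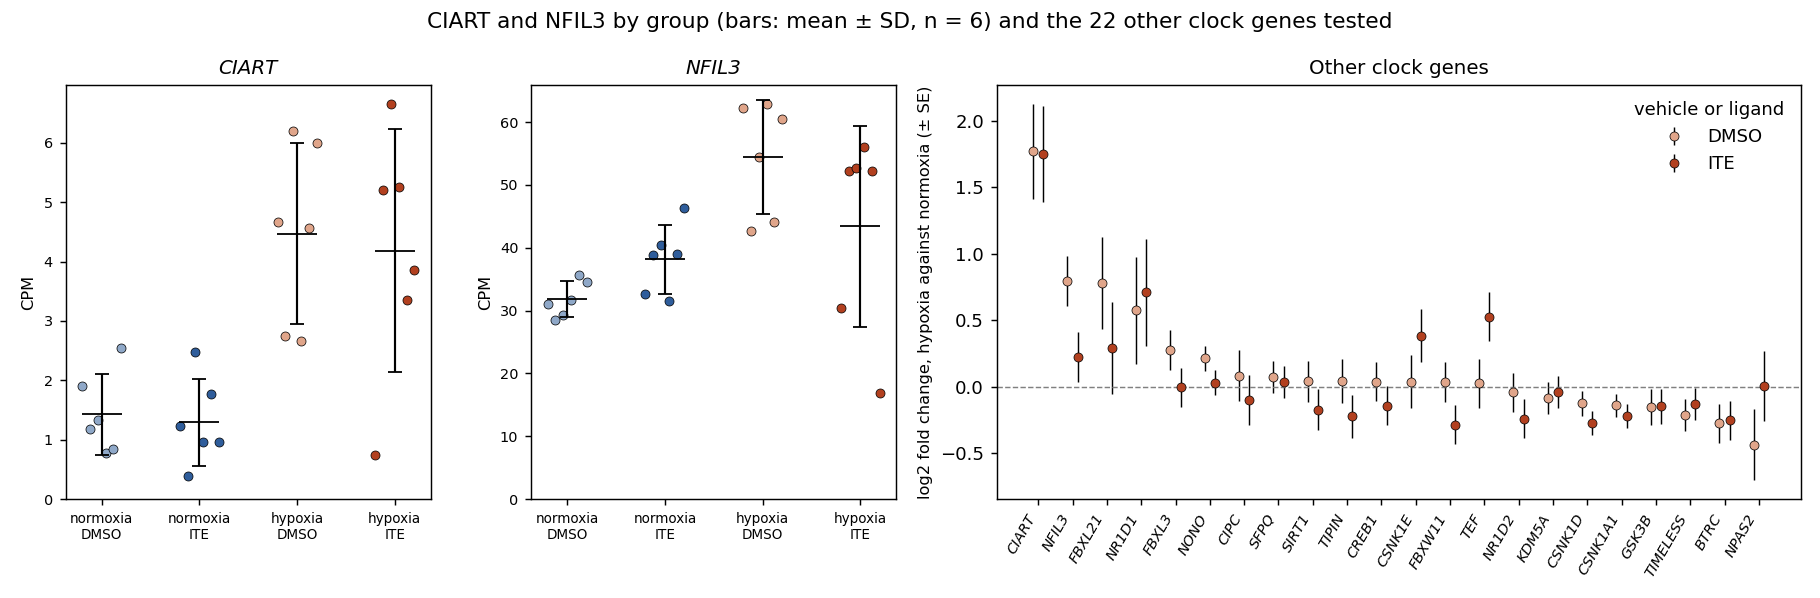
CPM of CIART and NFIL3 in the 6 libraries of each group with mean ± SD, and the log2 fold change ± SE for hypoxia against normoxia of the 22 other clock genes tested, with DMSO (light) and with ITE (dark). CIART lies at 1.77 and 1.75, NFIL3 at 0.79 and 0.22, and most of the rest near 0.

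The other clock genes named here, NPAS2, NR1D1, NR1D2, TEF and TIMELESS, did not pass. NPAS2, which can stand in for CLOCK, had a hypoxic difference of -0.44 with DMSO (SE 0.27, adjusted p = 0.649 in edgeR) and 0.01 with ITE. NR1D1 and NR1D2, repressors of ARNTL also known as REV-ERBs, differed by 0.58 (SE 0.40, adjusted p = 0.703 in edgeR) and -0.04 with DMSO, and NR1D1 was at a mean of 1.15 ± 0.632 CPM in normoxia + DMSO. TEF, an output factor of the same family as DBP, differed by 0.02 with DMSO (SE 0.19) and by 0.53 with ITE (SE 0.18, adjusted p = 0.113 in edgeR), the latter with all 6 hypoxic libraries above the range of normoxia + ITE. TIMELESS differed by -0.21 with DMSO (SE 0.12, adjusted p = 0.609 in edgeR). The related bHLH-PAS genes AHR, HIF1A, EPAS1, ARNT and ARNT2 did not pass in any of the comparisons either. HIF1A had the lowest adjusted p of them, with -0.16 in hypoxia with DMSO (SE 0.12, adjusted p = 0.726 in edgeR) and -0.36 with ITE (SE 0.12, adjusted p = 0.0958 in edgeR).

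The genes whose log2 CPM followed each called member most closely over the 24 libraries were found among 10064 genes with a mean of at least 5 CPM, by the root mean square difference after centring each gene on its mean. For BHLHE40 they were PDK1 (0.232), the histone demethylase gene KDM3A (0.260) and PFKFB3 (0.268), where BHLHE40 itself varied by 0.745 about its mean. For BHLHE41, which varied by 0.62, they were PLOD2 (0.336), ZNF654 (0.361) and GBE1 (0.363). PDK1, PFKFB3 and GBE1 encode enzymes of glucose and glycogen metabolism, and PLOD2 encodes a collagen-modifying enzyme. Since BHLHE40 and BHLHE41 rose in hypoxia in these same libraries, the direction of these 6 was fixed by the choice. Their log2 fold changes in hypoxia with DMSO ran from 0.93 (GBE1) to 1.61 (PDK1).

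Since clock genes could differ between sets of cultures, the replicate number was tested as a factor across the 4 groups. None of the 10 passed, where 1.76% of all genes did, and 2 had an unadjusted p under 0.05 in edgeR, as did 9.59% of all genes tested. These were PER2 (adjusted p = 0.393 in edgeR) and BHLHE41 (adjusted p = 0.464 in edgeR). Lastly, several loci overlap other genes. ARNTL2 and BHLHE40 overlap antisense genes (BMAL2-AS1 and BHLHE40-AS1), and CLOCK, PER3 and BHLHE41 overlap TMEM165, UTS2 and SSPN on the other strand. The library kit keeps strand, but the strand setting of the count is not given in the sources used here. Whether reads in these overlaps were counted for the member, for its partner or for neither is therefore not known.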

How the data were processed

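PolyA RNA from 24 libraries was sequenced by the authors with a directional kit. Per the submitters' processing notes and the study's methods, the authors trimmed reads (Trim Galore 0.3.3), aligned them to GRCh37 with HISAT2, removed reads that did not map uniquely (Picard 2.0.1) and counted fragments strictly within UCSC genes (HTSeq 0.5.4p3). The authors deposited these raw counts by gene symbol, unnormalised, for each library. The labels of the samples gave group and replicate. The members and gene lists were chosen with earlier results of these data known.

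Genes were filtered by edgeR's filterByExpr (minimum count 10), normalised by TMM and fitted with 1 mean per group over all 24 libraries by quasi-likelihood (edgeR 4.0.16, R 4.3.3). Two-sided p-values were adjusted by Benjamini-Hochberg over 11735 genes, with a threshold of 0.05. The replicate number was tested by a joint F test. The pipeline was tested on simulated data. Alternatives were DESeq2 1.42.0, limma 3.58.1 voom with sample quality weights, RLE factors, other filters, the replicate block, the compared groups alone and leaving out each library. The block with only the compared groups, and leaving out 5 libraries together, were chosen after seeing the data. Exonic lengths are unions of GENCODE v44lift37 exons, which may differ from the models counted. Named genes were the 10 members, a chosen set of further clock genes, the related bHLH-PAS genes, CYP1B1 and NDRG1. Any listed clock gene past the threshold and the 3 genes nearest to each called member were also named. Total counts ranged from 770094 to 93851342, which sets the precision of the low genes.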

Additional observations from a re-analysis of the deposited data

Results flagged for a closer look

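A library far from the others of its group was looked for in 48 sets of 6 values, the CPM of 12 clock genes in 4 groups, by the gap to the nearest value over the whole range. It was found in 3 sets, and chance gives about 2.4. PER2 was at 4.50 CPM in normoxia + ITE replicate 6, where the next library was at 2.58 CPM. PER2 was at 0.444 CPM in hypoxia + DMSO replicate 1, from 2 counts, where the next was at 2.75 CPM. CRY2 was at 14.9 CPM in hypoxia + ITE replicate 1, from 20 counts in a library of 1357702, where the next was at 7.72 CPM. The latter pair of libraries are among the 5 that stood apart across genes.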

How the results depend on the processing

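BHLHE40 and CIART kept their hypoxic rise in every fit that left out 1 library, and no called change turned direction under any alternative run. In hypoxia with DMSO the count of members called ranged from 1 to 2 over the fits without 1 library, and voom added PER3. Over all genes tested, voom called 840 of 11735 in that comparison. In hypoxia with ITE the count of members was 3 with voom (BHLHE40, BHLHE41 and PER1) and 2 without the 5 libraries that stood apart. These fits called 605 of 11735 and 349 of 12001 genes. Without 1 library the count of members was from 1 to 2. For both stimuli against neither it was 2 with voom, which called 721 of 11735 genes there. By replicate number the count of members was 1 with DESeq2 (PER2), 1 with voom (BHLHE41) and 1 in the normoxia libraries alone (BHLHE40). It was 2 without the 5 libraries (ARNTL2 and BHLHE41), and from 0 to 1 without 1 library. Over all genes tested, 617 of 11735 passed with DESeq2 and 1369 of 11735 with voom. In the normoxia libraries alone 1961 of 11511 passed, and 1397 of 12001 without the 5 libraries. Same-numbered libraries of normoxia + DMSO and normoxia + ITE deviated together in 5 of 6 pairs (correlation across genes over 0.1). Those of normoxia + DMSO and hypoxia + ITE did so in 4 of 6. Those of normoxia and hypoxia did so in 3 of 6, both with DMSO and with ITE. For hypoxia + DMSO and hypoxia + ITE it was 2 of 6. As this was uneven, the main fit did not take the numbers as pairs, even for ITE in normoxia. With the replicate block, 2 members were called in hypoxia with DMSO, 1 in hypoxia with ITE, 1 for both stimuli against neither and 0 for ITE in normoxia, ITE in hypoxia and the interaction, while NFIL3 was lost in hypoxia with DMSO (adjusted p = 0.0512 in edgeR). Where the block was fitted to the compared groups alone, CIART was lost in hypoxia with ITE (1.69, adjusted p = 0.166 in edgeR) and for both stimuli against neither (1.80, adjusted p = 0.128 in edgeR). The cause of these moves was not tested. Depth limits PER1, PER2, PER3, CRY2 and CIART in the shallowest library, where 3 counts were worth 4.12 CPM.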
